A study of Bos taurus with 24 samples.

Results

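Among the 17071 rows of the table, 153 named an RNA family in place of a gene and carried no gene ID. They were taken as all rows in which neither of the first 2 cells began with the prefix of a bovine Ensembl gene ID, a choice that used no measured value. Read together, both cells gave 9 family names, among them 5S_rRNA, Metazoa_SRP, Y_RNA and RNaseP_nuc. The row given as "5" and "8S" was read as 5.8S rRNA. The sign _ in these names was put in here where both cells were joined, and is not a trait of the cells themselves. Of the 16918 rows with a gene ID, 0 had that sign in their symbol. As all 9 joined names hold that sign, no row with a gene ID could match one of them. No row with a gene ID had the first cell of a family, 5S, Metazoa, RNaseP, RNase or Y, as its symbol. The first cells of the other families were not searched for, so rows with a gene ID may stand for some of these RNAs. Because the rows of a family had the same name, they were numbered here by their mean value, from the highest down, and the number serves only as a name.

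Each library held the RNA of 1 bovine oocyte. In the siRNA injected group, 12 denuded germinal vesicle oocytes had received a non-specific siRNA, which the labels call scrambled, together with a fluorescent dextran, and only oocytes that showed the dye were kept. The non-injected group, which the labels call wild type, consisted of 12 oocytes that were not injected. All 24 oocytes were cultured with the CDK inhibitor roscovitine for 16 h and then matured for 22 h, and were collected in metaphase II. The oocytes came from slaughterhouse ovaries, and the sources used here give neither the animals nor their ages. A p-value therefore covers the spread from oocyte to oocyte, not that between animals. No group was injected without siRNA, so that the puncture, the dye and the siRNA cannot be told apart.

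The families are structural RNAs. The 5.8S rRNA is cut from a precursor that RNA polymerase I makes and that also holds the large rRNAs of both ribosomal subunits, whereas 5S rRNA is made by RNA polymerase III from genes of its own. The SRP RNA is the scaffold of the signal recognition particle, which brings ribosomes that make secreted proteins to the endoplasmic reticulum. RNase P RNA is the catalytic part of the enzyme that trims tRNA precursors, RNase MRP RNA takes part in the processing of rRNA precursors, and Y RNAs bind the Ro protein. In their mature form none of these RNAs ends in a long poly(A) tail, while CEL-seq2, the method used, primes cDNA from poly(A). An oocyte stores ribosomes for the embryo, and rRNA makes up most of its RNA. Values are RPM, which are reads scaled to a sum of 1000000 in each oocyte, after reads of a row with the same unique molecular identifier (UMI) were taken as 1 molecule. The oocytes held 134080 to 415554 UMIs, and 1 UMI was worth 2.27 to 7.35 RPM. Since CEL-seq2 reads 1 end of each primed molecule, RPM was not divided by length, and a level says how much was primed, not how many copies an oocyte held. As each value is a part of the same sum, more of one RNA and less of all others cannot be told apart. No sequence of these RNAs could be read from the files used here.

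Signal was concentrated in a few rows. The 8 leading rows of 5.8S rRNA took 78.1% of the RPM of all 153 rows, and the 15 leading rows took 88.5%. The other leading rows were 5 of SRP RNA and 2 of 5S rRNA. By family, over 24 oocytes, 5.8S rRNA made up 78.1%, SRP RNA 14.4%, 5S rRNA 6.59%, RNase P RNA 0.477% and Y RNA 0.348% of that RPM. The sources do not give how reads that match several rows were placed, and whether a molecule was counted on more than 1 row, which would raise families of many rows, was not tested. At the other end, 15 rows were at 0 in all 24 oocytes, which together allow up to 0.443 in 1000000 UMIs for such a row. A further 42 rows rested on 1 UMI in the whole study. Intervals and such limits cover counting error only.

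**Figure D1:**
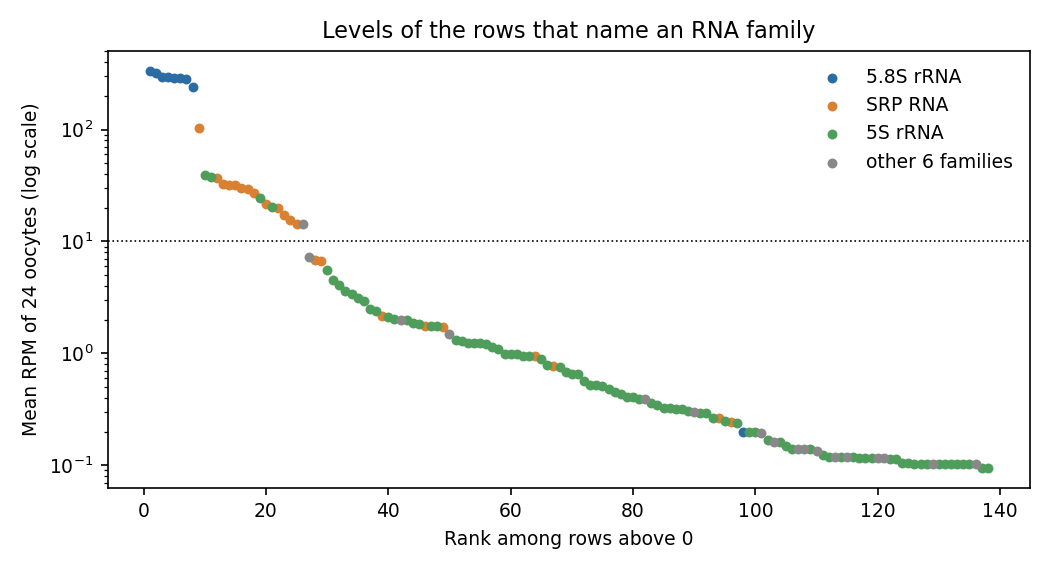
Mean RPM of 24 oocytes (vertical, log scale) for the 138 rows above 0, ranked from the highest (horizontal) and coloured by RNA family, with a dotted line at 10 RPM. The 8 leading rows of 5.8S rRNA lie between 242 and 336 RPM, SRP RNA row 1 follows at 102 RPM, and 26 rows lie above the line.

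Only 26 of the 153 rows (17%) reached a mean of 10 RPM, against 42.5% of all rows in the table. They were 8 of the 9 rows of 5.8S rRNA, 13 of the 22 of SRP RNA, 4 of the 101 of 5S rRNA and 1 of the 2 of RNase P RNA. The 127 rows below it held 803 UMIs in all, 3.82% of the UMIs of the 153 rows. Among all rows of the table, 5.8S rRNA row 1 ranked 586 by mean RPM and row 8 ranked 874, and SRP RNA row 1 ranked 2044.

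The 8 leading rows of 5.8S rRNA kept nearly constant proportions to each other. Row 1 was at 106 RPM in the lowest, 251 in the median and 953 in the highest siRNA injected oocyte, and at 121, 283 and 712 RPM in non-injected oocytes. Row 8, the lowest of them, was at 84.7, 181 and 818 RPM in injected and 87.3, 196 and 438 RPM in non-injected oocytes. In both rows the lowest values of the groups were close and the groups overlapped, while the highest values were those of injected oocytes. The rows together held 16520 UMIs, of which row 1 had 14.3% and row 8 had 10.3%, beside 12.5% for an even split. Single oocytes gave a row between 7.66% and 17.7% of the 8. When the UMIs of each row in each oocyte were set against constant proportions, the chi-square was 143 with 161 degrees of freedom, a ratio of 0.888, where sampling alone gives a ratio near 1. The proportions between these rows thus varied between oocytes by no more than sampling noise, although the family's sum ran from 742 to 7491 RPM. As the placing of reads among rows of a family is not known, single rows are uncertain, and the sum of the family is given beside them. The ninth row of 5.8S rRNA held 1 UMI, in 1 siRNA injected oocyte.

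**Figure D2:**
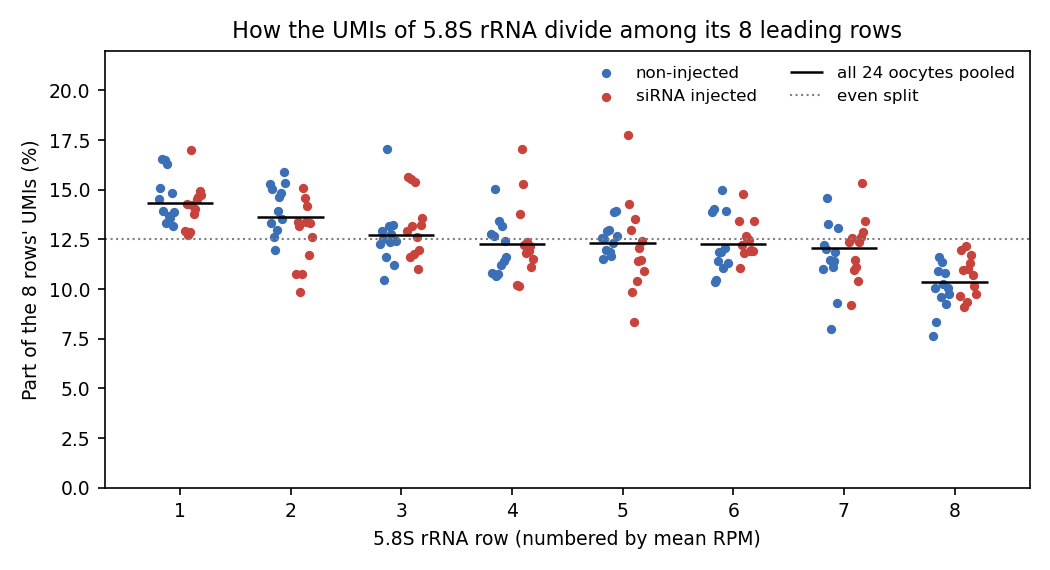
Part of the UMIs of the 8 leading 5.8S rRNA rows (vertical, percent) that fell on each row (horizontal), 1 point per oocyte, blue for non-injected and red for siRNA injected. Black lines give the pooled value, from 14.3% for row 1 to 10.3% for row 8, and the dotted line an even split of 12.5%.

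SRP RNA rows kept their proportions less closely. Row 1 was at 19.8, 92.8 and 217 RPM in the lowest, median and highest injected oocyte and at 6.82, 83.4 and 247 RPM in non-injected oocytes. Its mean part of the family's UMIs was 27.0% ± 10.7 and 20.2% ± 9.76 (SD, n = 12 each) in the injected and the non-injected group, from 7.38% to 47.2% in single oocytes. Rows 2 to 13 were lower, with means of 14.4 to 36.9 RPM. Over the 13 rows the chi-square against constant proportions was 513 with 276 degrees of freedom, a ratio of 1.86, and without row 1 the ratio was 1.47. The proportions between these rows thus varied between oocytes by more than sampling noise. The other 9 rows of SRP RNA had means of 0.246 to 6.84 RPM.

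Rows of 5S rRNA were many and mostly near the limit of detection. Of the 101 rows, 11 were at 0 throughout and 30 held 1 UMI in all, while rows 1 to 4 held 61.9% of the family's UMIs. Row 1 was at 10.7, 31.6 and 114 RPM in the lowest, median and highest injected oocyte and at 3.25, 29.7 and 134 RPM in non-injected oocytes. Row 2 was at 10.7, 36.7 and 112 RPM in injected and 6.5, 22.4 and 109 RPM in non-injected oocytes. In both rows the groups overlapped over most of their range. For rows 1 to 4 the chi-square against constant proportions was 72.6 with 69 degrees of freedom, a ratio of 1.05. None of the other 97 rows had a mean above 5.59 RPM.

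The smaller families gave few molecules. RNase P RNA row 1 was at 0, 12.8 and 25.5 RPM in the lowest, median and highest injected oocyte and at 6.0, 11.1 and 42.5 RPM in non-injected oocytes, with 105 UMIs in all. Y RNA row 1 was above 0 in 21 of 24 oocytes, at a mean of 7.31 RPM and with 56 UMIs. RNase MRP RNA had 11 UMIs in 7 oocytes. The remaining names are of small nucleolar RNAs, which guide chemical changes of other RNAs. Of the 7 rows of snoU2_19, 4 held 1 UMI each and 3 held none, and SNORD53_SNORD92 and snosnR60_Z15 held 1 UMI each. An oocyte without a UMI of such a row could hold up to 6.81 RPM at the highest depth and 22.1 RPM at the lowest, so a 0 in a single oocyte does not show that the RNA was absent.

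The rows took a small share of each library, and this share differed several-fold between oocytes. As a part of all RPM, the lowest, median and highest values were 0.0964%, 0.260% and 0.818% in injected and 0.114%, 0.268% and 0.546% in non-injected oocytes. Their means were 0.318% ± 0.228 and 0.284% ± 0.121 (SD, n = 12 each). The difference in means of 0.0334 percentage points is smaller than the spread between oocytes, and the medians differed in the opposite direction. Without siRNA injected oocytes 3 and 8, which had the highest shares, the difference was -0.0520 percentage points, an alternative chosen after seeing the data. Because no non-injected oocyte was left out, this alternative could only lower the difference. For comparison, 318 rows of small nucleolar and Cajal body RNAs with a gene ID took 0.200% ± 0.0733 in injected and 0.239% ± 0.0965 in non-injected oocytes (SD, n = 12 each), and 399 rows of spliceosomal and 7SK RNAs took 0.256% ± 0.139 and 0.203% ± 0.109 (SD, n = 12 each).

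**Figure D3:**
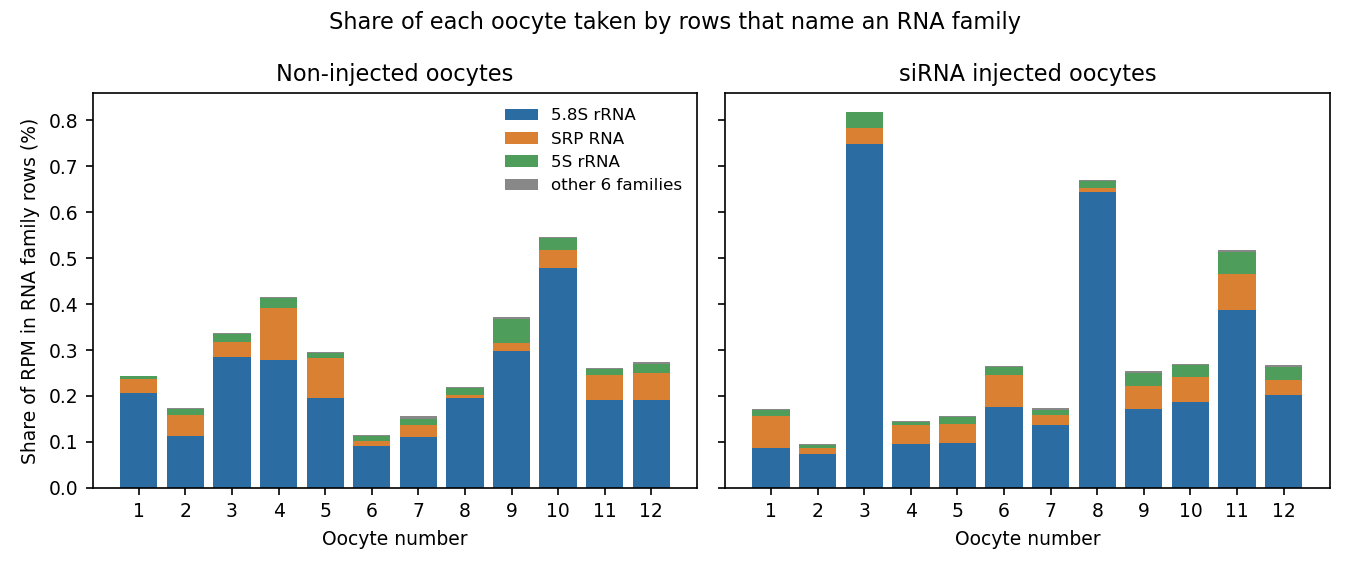
Share of RPM in the 153 rows (vertical, percent) for each oocyte (horizontal), non-injected on the left and siRNA injected on the right, stacked by RNA family. siRNA injected oocytes 3 and 8 reach 0.818% and 0.671%, and non-injected oocyte 10 reaches 0.546%, mostly through 5.8S rRNA.

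5.8S rRNA made up most of the high shares. siRNA injected oocyte 3 had 0.821% of its UMIs in these rows (95% Wilson interval 0.783% to 0.861%), siRNA injected oocyte 8 had 0.673% (0.646% to 0.701%), non-injected oocyte 10 had 0.554% (0.530% to 0.580%) and siRNA injected oocyte 11 had 0.540% (0.517% to 0.563%). In siRNA injected oocyte 2, the lowest, the interval was 0.0891% to 0.113%. These intervals are narrow beside the range between oocytes. In siRNA injected oocyte 3 the 3 highest rows were 5.8S rRNA rows 4, 2 and 5, at 1033, 988 and 973 RPM. In siRNA injected oocyte 8 they were rows 1, 2 and 3 at 906, 863 and 811 RPM, and 5.8S rRNA made up 95.8% of the RPM of the 153 rows. That part was 91.6% in siRNA injected oocyte 3 and 87.6% in non-injected oocyte 10. In siRNA injected oocyte 11 it was 74.7%, near the mean of 74.6% over 24 oocytes, and that oocyte was also among the 3 highest for SRP RNA and for 5S rRNA. The highest of the 153 rows was a 5.8S rRNA row in 22 of 24 oocytes, and in siRNA injected oocyte 4 it was SRP RNA row 1 at 169 RPM (47 UMIs). Among the 3 oocytes of lowest share, 5.8S rRNA row 3 led in non-injected oocyte 6 at 155 RPM and in siRNA injected oocyte 2 at 116 RPM.

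The sum of 5.8S rRNA had means of 2508 ± 2252 and 2191 ± 1058 RPM (SD, n = 12 each) in the injected and the non-injected group, with medians of 1746 and 1950 RPM. It ran from 742 RPM in siRNA injected oocyte 2 to 7491 RPM in siRNA injected oocyte 3. The coefficient of variation of the 8 leading rows over 24 oocytes was 69.8% to 77.8%, beside a median of 25.1% for the 2058 rows with a gene ID and at least 100 RPM, of which 4 exceeded the lowest of the 8. Counting error alone would give 10.1% for row 1.

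SRP RNA did not follow 5.8S rRNA. Its sum had means of 425 ± 223 and 441 ± 316 RPM (SD, n = 12 each) in the injected and the non-injected group. The highest value was 1149 RPM in non-injected oocyte 4 and the lowest 72.7 RPM in non-injected oocyte 8. siRNA injected oocyte 8, the second highest for 5.8S rRNA at 6432 RPM, was the second lowest for SRP RNA at 93.4 RPM. The ratio of 5.8S rRNA to SRP RNA ran from 1.27 in siRNA injected oocyte 1 to 68.9 in siRNA injected oocyte 8. Across the 24 oocytes, Pearson's r between both sums was -0.0594 and Spearman's rho was 0.0183, and without siRNA injected oocytes 3 and 8 the r was 0.25. They come from the same libraries and the same total of RPM, and the correlations here are descriptions.

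The sum of 5S rRNA had means of 215 ± 125 and 182 ± 122 RPM (SD, n = 12 each) in the injected and the non-injected group. It was highest in non-injected oocyte 9 at 527 RPM, followed by siRNA injected oocyte 11 at 488 RPM. With 5.8S rRNA it had an r of 0.47 and a rho of 0.57 over 24 oocytes. The rho was 0.74 within the 12 injected and 0.59 within the 12 non-injected oocytes, and without siRNA injected oocytes 3 and 8 the r was 0.64. SRP RNA and 5S rRNA had an r of 0.12 and a rho of 0.21.

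In relation to the number of detected rows, the families differed from each other. Oocytes had 9152 to 12093 rows above 0 RPM, a number that follows depth (r = 0.89 with UMIs, n = 24). The share of the 153 rows had an r of 0.32 and a rho of 0.23 with it. The r was 0.53 in injected and 0.051 in non-injected oocytes, and without siRNA injected oocyte 8 and non-injected oocyte 11, the farthest from the median, it was 0.15. SRP RNA ran the other way, with an r of -0.50 (-0.31 in injected and -0.62 in non-injected oocytes, and -0.45 without the same 2 oocytes). SRP RNA also ran against UMIs (r = -0.43), so depth moves with it. For 5S rRNA the r with detected rows was 0.36.

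When every oocyte was thinned to 134080 UMIs, so that depth was equal, the relation of the share to detected rows had an r of 0.70 and a rho of 0.50. Without siRNA injected oocytes 3 and 8 the r was 0.42. For 5.8S rRNA the r was 0.74 over all oocytes, 0.82 in injected and 0.45 in non-injected oocytes, and 0.44 without these 2 oocytes. The r of SRP RNA was then -0.33, and -0.15 without the 2 oocytes. That of 5S rRNA was 0.32 (rho 0.56), and 0.59 (rho 0.67) without them. After thinning siRNA injected oocyte 8 had the most rows above 0, 10168, and siRNA injected oocyte 3 followed with 9598, so the 2 oocytes of highest 5.8S rRNA were also the 2 with most rows.

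**Figure D4:**
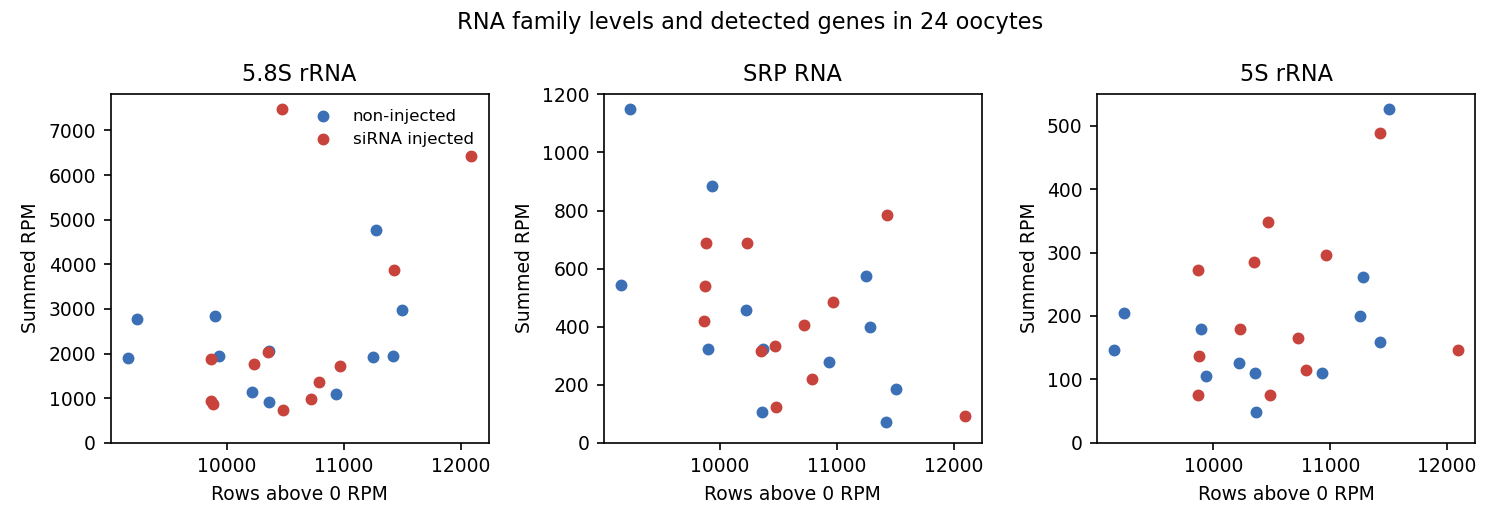
Summed RPM of 5.8S rRNA, SRP RNA and 5S rRNA (vertical, separate scales) against the rows above 0 RPM in each of 24 oocytes (horizontal), blue for non-injected and red for siRNA injected. The Pearson r is 0.38, -0.50 and 0.36 in the 3 panels, and siRNA injected oocyte 8, farthest right with 12093 rows, is high for 5.8S rRNA and low for SRP RNA.

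Of the 153 rows, 29 to 69 were above 0 in an injected oocyte (46.3 ± 9.85, SD, n = 12) and 35 to 68 in a non-injected oocyte (45.4 ± 11.1, SD, n = 12). siRNA injected oocyte 11 and non-injected oocyte 9 had the most, and these were also the oocytes of highest 5S rRNA. Rows of 5S rRNA were 35 of the 69 and 40 of the 68 rows in these oocytes, so the number of rows and the level of 5S rRNA are not separate measures. After thinning to equal UMIs the numbers were 36.6 ± 8.22 and 34.5 ± 6.20. Both differences are smaller than the spread between oocytes.

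Markers of the oocyte and of its surrounding cells were read beside the share. Of 14 oocyte markers 11 were found, at a median of 578 RPM. Of 14 markers of cumulus and granulosa cells 10 were found, at a median of 9.97 RPM. Summed, they gave 339 to 595 RPM in injected and 356 to 513 RPM in non-injected oocytes, and this sum had a rho of 0.67 with the share of the 153 rows over 24 oocytes. The 4 oocytes of highest share had sums of 467 to 595 RPM and the other 20 had 339 to 513 RPM. STAR, which carries cholesterol into mitochondria, made most of the sum (mean 262 RPM), and without it the rho was 0.41. HAS2, which makes the hyaluronan of the expanding cumulus, was at 81.7 to 144 RPM in the 4 oocytes of highest share and at 56.4 to 113 RPM in the others. INHBA, an inhibin and activin subunit, was at 36.8 to 57.3 RPM in the 4 and at 14.7 to 56.4 RPM in the others. At the other end of the list, FSHR had 1 UMI, AMH 2 and FST 1 in all 24 oocytes, and each was at 0 in the 4 oocytes of highest share. CYP19A1, the aromatase of granulosa cells, was at 17.3 to 25.3 RPM in those 4 oocytes and at 0 to 31.8 RPM in the others. PTGS2 was at 12.3 to 39.7 RPM in the 4 and at 5.07 to 44.1 RPM in the others. VCAN was at 2.83 to 9.54 RPM in the 4 and 0 to 18.8 RPM in the others. For PTX3 the values were 0 to 2.83 and 0 to 14.1 RPM, so the highest values of these markers lay outside the 4. The part of cumulus cell RNA in the share was not tested.

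To ask whether injection changed these RNAs, every row of the table with a mean of at least 10 RPM was tested on log2(RPM + 5) with limma, and called where the Benjamini-Hochberg adjusted p was under 0.05 and the fold exceeded 1.2. For low rows the added 5 RPM makes these fold changes too small. Of the 26 rows tested, 0 were called (lowest limma adjusted p = 0.378), beside 0.221% of the 7256 rows tested in the table. At an unadjusted p under 0.05 there was 1 of the 26, beside 12.4% of all tested rows. The median limma SE was 0.319 for the 26 rows and 0.219 for all tested rows, so the 26 were measured less precisely. On recovered UMI counts, edgeR called 0 of the 26 and 0% of all rows, with 0 of the 26 at an unadjusted p under 0.05 beside 11.6% of all rows. DESeq2 gave an adjusted p for 9 of the 26 and called 0 of them beside 3.5% of the 3317 rows with one, with 0 of the 26 at an unadjusted p under 0.05 beside 11.6% of all rows. The median log2 fold change was -0.05 for the 26 rows and 0.02 for all tested rows. With limma 9 of the 26 log2 fold changes were positive and 17 negative, and with edgeR 17 were positive and 9 negative, so these directions depend on the tool. In all 26 rows the groups overlapped, as in all 7256 rows tested, of which 0% had groups apart.

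**Figure D5:**
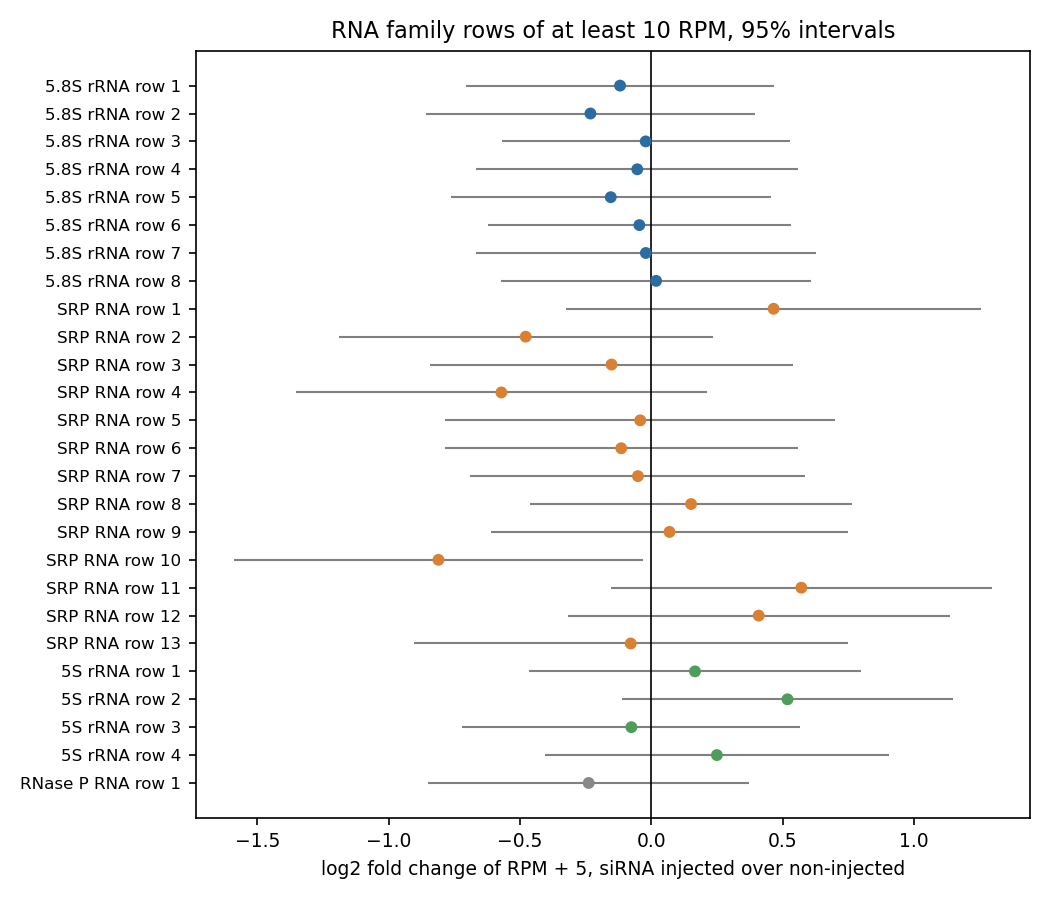
Log2 fold change of RPM + 5, siRNA injected over non-injected (horizontal), for the 26 rows of at least 10 RPM (vertical), with 95% intervals from limma as lines and points coloured by family. Points lie between -0.81 for SRP RNA row 10 and 0.57 for SRP RNA row 11, and only the interval of SRP RNA row 10 leaves out 0 before adjustment.

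For 5.8S rRNA row 1 the log2 fold change was -0.12 (SE 0.29, 95% interval -0.71 to 0.47, limma adjusted p = 0.906), although its mean was higher in injected oocytes, at 351 ± 299 against 321 ± 160 RPM (SD, n = 12 each). With edgeR it was 0.07 and with DESeq2 0.08, so its direction depends on the scale. Of the 8 rows of 5.8S rRNA tested, 7 had a negative and 1 a positive log2 fold change, from -0.23 to 0.02. Because their proportions hardly varied, the 8 values are close to repeats of 1 measurement. When the rows of each family were summed to 1 row before the fit, which was chosen after seeing the data, the log2 fold change of 5.8S rRNA was -0.09 (95% interval -0.67 to 0.50). With 12 oocytes in a group, the data leave room for any change of 5.8S rRNA inside that interval.

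SRP RNA rows pointed both ways, with 5 positive and 8 negative log2 fold changes. Row 10 had the smallest p of the 26 rows. It was at 0, 11.8 and 38.6 RPM in the lowest, median and highest injected oocyte and at 2.27, 18.1 and 87.1 RPM in the non-injected group (log2 fold change -0.81 ± 0.39 SE, limma adjusted p = 0.378), and 6 of 12 injected oocytes were below the non-injected median. Rows 4 and 2 had log2 fold changes of -0.57 and -0.48 (limma adjusted p = 0.579 and 0.617). Row 11 was at 2.72, 27.2 and 42.9 RPM in injected and 0, 12.6 and 30.4 RPM in the non-injected group (log2 fold change 0.57, limma adjusted p = 0.538). Rows 1 and 12 had log2 fold changes of 0.47 and 0.41 (limma adjusted p = 0.670 and 0.687), which were 0.23 without non-injected oocyte 8 and 0.27 without non-injected oocyte 1, 6 or 8. Summed over the family, the log2 fold change was 0.07 (95% interval -0.60 to 0.74).

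Of the 4 rows of 5S rRNA tested, 3 had a positive log2 fold change. It was 0.52 for row 2 (SE 0.31, limma adjusted p = 0.515), in which 9 of the 12 injected oocytes exceeded the median of the other group, and 0.17 for row 1 (limma adjusted p = 0.875). Summed over the family it was 0.24 (95% interval -0.30 to 0.79). RNase P RNA row 1 had a log2 fold change of -0.24 (SE 0.30, limma adjusted p = 0.796), with 10 of 12 injected and 12 of 12 non-injected oocytes above 0. It was -0.089 without siRNA injected oocyte 3 or 6, the 2 at 0. The sum of Y RNA had one of 0.17 (95% interval -0.41 to 0.76).

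Proteins of small RNA particles and of RNA trimming, some of which act on families that are not among the 153 rows, were read from the same fit. Of a list of 77 gene names, covering the proteins of the snoRNPs, snRNPs, the signal recognition particle, RNase P and MRP, the vault, Y RNA and 7SK particles, telomerase, the nuclear exosome with its poly(A) polymerases, and miRNA processing, 66 rows were found and 52 tested. Some genes stand in the list under an old and a new name, such as PAPD7 and TENT4A, so names without a row are not all missing genes. None of the 52 was called by limma or edgeR, beside 0.221% and 0% of all tested rows. None was called by DESeq2, beside 3.5% of the 3317 rows with an adjusted p. Many genes of the list, among them RPP30, DIS3, FBL, NOP10, LSM2 and SNRPE, had no DESeq2 adjusted p and could not be called. The DESeq2 result thus covers only the other genes of the list. At an unadjusted p under 0.05 limma had 1 of the 52, beside 12.4% of all rows. With edgeR there were 2 and with DESeq2 3 of the 52, each beside 11.6% of all rows. Without siRNA injected oocyte 1 limma had 7 of the 53 then tested, so this number depends on single oocytes. The share of all rows in that run was not read, so the 7 do not set these proteins apart from other rows. The list had 31 positive and 21 negative log2 fold changes, with a median of 0.02 beside 0.02 for all 7256 rows. EXOSC7, a ring subunit of the RNA exosome that trims the 3' end of 5.8S rRNA, was at 71.6, 141 and 227 RPM in the lowest, median and highest injected oocyte and at 57.0, 97.1 and 162 RPM in the non-injected group (log2 fold change 0.43 ± 0.18 SE, limma adjusted p = 0.308, higher than the non-injected median in 9 of 12). EXOSC9, another ring subunit, had a log2 fold change of -0.23 (limma adjusted p = 0.426). PAPD7, a non-canonical poly(A) polymerase, had means of 808 ± 122 and 707 ± 62.0 RPM in injected and non-injected oocytes (SD, n = 12 each, log2 fold change 0.18, limma adjusted p = 0.440). SNRPC, a protein of the U1 snRNP, had a log2 fold change of 0.54 (limma adjusted p = 0.412).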

How the data were processed

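Poly(A)-primed RNA of 24 single metaphase II oocytes was sequenced with CEL-seq2. Reads were mapped to cDNA sequences, collapsed by UMI within each gene, and deposited by the authors as RPM, which sum to 1000000 in each of 24 columns. UMD3.1 is the build in the submitters' processing notes. The aligner and the placing of reads that match several copies are not given in the sources used here. Deposited RPM hold a correction for repeated UMIs. It was undone (capacity 4048) to recover whole UMI counts, and 100% of the values above 0 then came out whole within 0.001.

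Groups came from the sample titles. Log2(RPM + 5) was fitted with limma 3.58.1 (R 4.3.3, moderated with a mean-variance trend) over the 7256 rows with a mean of at least 10 RPM. Recovered counts were fitted with edgeR 4.0.16 (quasi-likelihood) and DESeq2 1.42.0 as alternatives. The fits were tested on simulated data. Shares, sums over rows and correlations are descriptions without a test, computed in Python 3.11.15 with scipy 1.17.1. Thinning drew UMIs once, without replacement, with a fixed seed. Other pseudocounts, filters, a TMM scaling, a replicate block and leaving out each oocyte were tried.

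The rows and the lists were chosen with earlier results of these data known. Rows named are the 15 of highest mean, the 4 with the smallest p in each direction, the highest of each family, those leading in oocytes of extreme share, and the 4 proteins of the list with the smallest p.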

Additional observations from a re-analysis of the deposited data

How the results depend on the processing

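No row among the 26 tested, and no protein of the list, was called under any alternative run (pseudocount of 1 RPM, lower or no filter, TMM, edgeR, DESeq2, replicate block, leaving out each oocyte in turn). Over all tested rows, limma called 16, edgeR 0 (841 at an unadjusted p under 0.05) and DESeq2 116. The 16 became 0 with no filter on low values and without non-injected oocyte 8, 10 or 11, and 37 without siRNA injected oocyte 4. The log2 fold change of 5.8S rRNA row 1 turned from -0.12 to 0.068 with edgeR and 0.083 with DESeq2, and ran from -0.28 to -0.00170 when single oocytes were left out. That of 5S rRNA row 1 ran from -0.024 to 0.35. It was negative without non-injected oocyte 1, which had the lowest value of that row, 3.25 RPM (1 UMI). Causes of the turn in 5.8S rRNA row 1 and of that low value were not tested. The r of the share with detected rows moved from 0.32 to 0.70 on thinning. The difference in share ran from -0.0121 to 0.0572 percentage points when single oocytes were left out, was -0.00168 without the rRNA rows, and with the replicate block was 0.0334 (SD of the differences 0.253). The difference in rows above 0 ran from -1.23 to 2.89. Same-numbered oocytes of both groups had correlations of -0.12 to 0.17, over 0.1 in 2 of 12 pairs, and 1 of 24 oocytes was closest to its own number, so the numbers were not taken as pairs. With 1 UMI worth up to 7.35 RPM, 127 of the 153 rows were too low to compare.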

Other observations

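Among the 7230 tested rows with a gene ID, the one whose RPM ran most closely with the sum of 5.8S rRNA over 24 oocytes was ALKBH5 (ENSBTAG00000025046), which encodes a demethylase of m6A in RNA. Its Spearman's rho with that sum was 0.91 (Pearson's r 0.85, n = 24), and 0.92 and 0.71 within the injected and the non-injected oocytes. The next row, RHOT2, had a rho of 0.77. ALKBH5 was at 6.82 RPM (2 UMIs) in siRNA injected oocyte 2, the lowest for 5.8S rRNA, and at 105 RPM (37 UMIs) in siRNA injected oocyte 8, with a median of 26.5 RPM. In siRNA injected oocyte 3, the highest for 5.8S rRNA, it was at 52.5 RPM. Between the groups it was at 30.5 ± 27.0 RPM (SD, n = 12) and 30.2 ± 14.6 RPM (SD, n = 12). The gene was chosen as the highest of all these rows after its values were seen, and both measures come from the same libraries.

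Rows that ran against 5.8S rRNA included MAP3K4 (rho = -0.75), ABCF1 (rho = -0.68) and DBR1, the enzyme that opens intron lariats (rho = -0.68). Rows of the microRNA gene name bta-mir-2904 were among those closest to SRP RNA, with a rho of 0.69 for the highest, and another row of that name had a rho of 0.74 with 5S rRNA, as had MRPS6, the closest to it. PHF3 ran most strongly against 5S rRNA (rho = -0.80), followed by RSL1D1, a protein of ribosome biogenesis (rho = -0.77), TTN, MYO9A and CENPE. These rows too were chosen after their values were seen.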
